A study of Arabidopsis thaliana with 30 samples.

Results

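Petioles of excised eur1-11 leaves were compared late and early after the cut: 3 libraries at 96 h were set against 3 libraries at 24 h, 6 of the 30 libraries in the series. The members were chosen by their labels alone, as every petiole library of that genotype at those times, and the uncut state at 0 h was not part of the comparison. eur1-11 is a mutant of EAR1 (also named EUR1, AT5G22090), found after chemical mutagenesis of an Arabidopsis thaliana line of the Columbia accession that carries ORE1::LUC, a luciferase reporter driven by the ORE1 promoter. The wild type (WT) of the series is that same reporter line, so that both genotypes carry the transgene. In all groups the 4th rosette leaf of 21-day-old plants was cut at the petiole and floated on buffer in continuous white light, and the petiole region was collected fresh or 24, 48, 72 or 96 h later. The only treatment was excision. eur1-11 is 1 mutant line, and the labels do not say whether replicates came from separate plants or days, so that the p-values below measure the spread between these libraries.

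EAR1 dampens signalling by abscisic acid (ABA) through the protein phosphatases of the core ABA pathway. A cut Arabidopsis leaf first responds to the wound, then produces auxin that is carried to the vasculature of the petiole, where cells may be turned into root founder cells. Over the following days the cut surface is sealed, and the detached blade ages. Suberin, a polyester of long-chain acids, alcohols and ferulate with wax, is one of the barriers plants lay down in roots and at wounds.

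Counts on genes ranged between 22730838 and 40118681 in the 6 libraries, and 22878 to 24284 genes had at least 1 count. Levels are given in CPM (counts scaled to a common library total) and fold changes in log2 of 96 h over 24 h with an approximate standard error (SE). Each SE was back-calculated as the size of the log2 fold change over the square root of the edgeR F statistic. The 6 libraries were green leaf tissue by their transcripts: the Rubisco subunit RBCS1A had 283, 275 and 454 CPM at 96 h, against 538, 403 and 1016 CPM at 24 h. Of 12 markers of differentiated root tissue only 3 had enough counts to be tested, and RHD6 and COBL9 had 0 counts in all 6 libraries. The 3 tested were MYB36, MAKR4 and PHO1, with fold changes of 3.42, 0.65 and 0.52, of which PHO1 passed (adjusted p = 0.0461) but was lost without any 1 library other than 24 h replicate 3 (0.0727 to 0.156). The summed level of the 12 was 13.4 to 20.7 CPM at 96 h, against 9.99 to 12.8 CPM at 24 h. Most of this sum was PHO1, with means of 13.8 CPM at 96 h and 9.30 CPM at 24 h. PHO1 had a mean of 41.8 CPM in uncut eur1-11 petioles at 0 h, so that its transcript was not particular to root tissue here. The replicate 3 libraries stood apart from the others at both times. In every group of the series, in both genotypes, the counts of replicates 1 and 2 were closer to each other than either was to replicate 3. Over 16737 genes, replicates 1 and 2 at 96 h lay at a root mean square log2 distance of 0.158 from each other. Replicate 3 at 96 h lay at 0.374 from their mean and at 0.288 from the mean of replicates 1 and 2 at 72 h. At 24 h the distance of replicate 3 from the mean of replicates 1 and 2 was 0.514, with 0.548 to the same replicates at 48 h. Results that rest on a replicate 3 library are given with and without it.

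The comparison asks which transcripts set the late petiole apart from the early one in the mutant. Of the gene lists examined, suberin genes had the highest median fold change, followed by jasmonate output and low oxygen response genes. The lowest medians were those of XTH cell wall genes, photosystem genes and auxin response genes. These lists were chosen with earlier results of these data known, so that their order is a description only. Of 21472 genes tested, 7723 passed an adjusted p of 0.05 (36.0%; edgeR quasi-likelihood test, Benjamini-Hochberg), of which 3671 were higher at 96 h (17.1%) and 4052 lower (18.9%). A log2 fold change of at least 1 in size as well left 2709 genes (12.6%), with 1510 higher (7.03%) and 1199 lower (5.58%). The libraries of the 2 times did not overlap in 6942 of the 7723 genes, and in 45.9% of all genes tested. The median log2 fold change of all genes tested was −0.01. Genes of the chloroplast genome took 18.7, 20.6 and 26.5% of gene counts in the libraries at 96 h, against 36.5, 37.0 and 44.2% at 24 h, so that no library at 96 h reached the level of any at 24 h (difference of means −17.3 percentage points; exact two-sided permutation test, p = 0.1, the smallest value that 3 against 3 allows). Scaling by total counts in place of TMM moved the median fold change up by 0.46, and 90.5% of the genes that passed were then higher, against 47.5% with TMM. All fold changes below are on the TMM scale, and a list whose median turned sign with total counts is named as such.

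**Figure D1:**
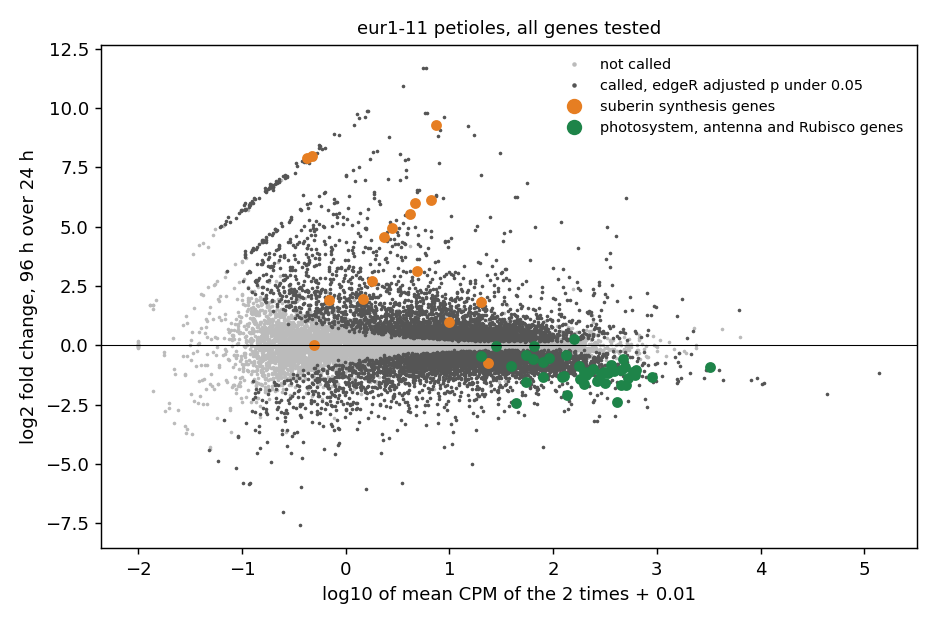
Log2 fold change of 96 h over 24 h in eur1-11 petioles against log10 of the mean CPM of both times plus 0.01, for the 21472 genes tested; dark points passed an adjusted p of 0.05. Suberin synthesis genes (orange) lie mostly above 0 and photosystem, antenna and Rubisco genes (green) mostly below; the straight rows of points at low CPM are genes with 0 or very few counts at 24 h, whose fitted fold change depends on the prior count.

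EAR1 itself (minus strand of chromosome 5, 7314583 to 7321743 in TAIR10.1) had 211, 194 and 163 CPM in eur1-11 petioles at 96 h, against 324, 312 and 243 CPM at 24 h. All libraries at 96 h were below all libraries at 24 h, with a log2 fold change of −0.63 ± 0.16 (adjusted p = 0.00438). In WT the fold change was −0.68 ± 0.16. eur1-11 came from chemical mutagenesis, so that the transcript level is no check of the genotype, and another gene, AT5G03385, overlaps EAR1 on the same strand.

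Genes that build suberin rose together at 96 h. Of 17 listed genes 16 could be tested, and 13 rose and 1 fell, with a median log2 fold change of 3.86, beside −0.01 over all genes tested. The share called was 87.5%, beside 36.0% of all genes tested. With each library left out in turn, 12 to 14 of the 16 passed. Their summed level was 116 to 148 CPM in the 3 libraries at 96 h, against 45.4 to 51.4 CPM at 24 h. Of the acid-oxidising enzymes, CYP86A1 (AT5G58860), the omega-hydroxylase of long-chain fatty acids, had 10.7, 11.0 and 22.8 CPM at 96 h, against 0, 0 and 0.0586 CPM at 24 h, where 2 reads were counted in all. The transcript was therefore present in every late library and close to absent early, at a count ratio of 701 (95% counting interval 194 to 5793, covering counting error only; adjusted p = 2.15e-05). CYP86B1, which hydroxylates very long chains, had 4.71, 3.70 and 4.83 CPM at 96 h, against 0.295, 0.166 and 0.117 CPM at 24 h, a log2 fold change of 4.56 ± 0.63 (adjusted p = 2.53e-05). GPAT5, the acyltransferase that joins the acids to glycerol, had 5.43, 4.35 and 6.37 CPM at 96 h, against 0.127, 0.356 and 0 CPM at 24 h (4.94 ± 0.76, adjusted p = 0.000109). For both genes the lowest library at 96 h was more than 10 times the highest at 24 h. The GPAT5 fold change was 6.60 without 24 h replicate 2 and 4.32 without 24 h replicate 3.

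The promoters of 3 of these enzymes are shown because suberin genes are known targets of MYB transcription factors, which bind AC-rich words. Each is the 250 bases before the annotated start in TAIR10.1 (RefSeq annotation), and capitals mark a match on either strand to 1 of 4 words. They are ACCTAC (the first), ACCAAC (the second), ACCTAA (another) and ACCAAA (the last), and no pair of matches shown overlaps.
GPAT5 (chr3:3595444-3595693, plus strand): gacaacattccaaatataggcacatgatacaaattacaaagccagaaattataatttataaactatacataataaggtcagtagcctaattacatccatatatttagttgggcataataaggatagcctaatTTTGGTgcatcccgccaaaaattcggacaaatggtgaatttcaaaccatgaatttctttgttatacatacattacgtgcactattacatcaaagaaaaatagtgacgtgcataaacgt
CYP86B1 (chr5:7805969-7806218, minus strand): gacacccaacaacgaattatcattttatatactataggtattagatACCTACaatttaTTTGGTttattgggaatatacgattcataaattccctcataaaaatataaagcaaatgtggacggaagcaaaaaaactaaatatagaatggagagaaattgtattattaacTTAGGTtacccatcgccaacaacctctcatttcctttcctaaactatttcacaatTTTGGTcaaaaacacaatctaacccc
CYP86A1 (chr5:23768112-23768361, minus strand): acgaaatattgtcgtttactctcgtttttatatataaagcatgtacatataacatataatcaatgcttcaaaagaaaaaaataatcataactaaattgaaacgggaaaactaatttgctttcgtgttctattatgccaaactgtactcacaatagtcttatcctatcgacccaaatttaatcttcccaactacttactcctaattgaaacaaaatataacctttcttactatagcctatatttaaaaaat
GPAT5 held 1 word, 118 bases before the start. CYP86B1 held 4 words, at 204, 192, 81 and 26 bases before the start, and CYP86A1 held none. A word was present in 8 of the 13 suberin genes that rose and in 3 of the other 4, beside 51.4% of the promoters of 20404 tested genes. The share in the suberin list was thus near that of genes at large. A match is a description of the letters and not a bound site.

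Enzymes of the alcohol and ferulate parts of suberin rose as well. FAR1, FAR4 and FAR5 encode reductases that turn acyl chains into fatty alcohols. FAR5 had 18.6, 8.45 and 12.4 CPM at 96 h, against 0.169, 0.261 and 0.117 CPM at 24 h (log2 fold change 6.11 ± 0.87, adjusted p = 2.34e-05). FAR4 had 8.48, 7.50 and 8.24 CPM at 96 h, against 0.380, 0.190 and 0 CPM at 24 h (5.55 ± 0.52, adjusted p = 3.57e-07). FAR1 had 9.53, 7.13 and 8.66 CPM at 96 h, against 0.211, 0.427 and 3.02 CPM at 24 h (3.16 ± 0.92, adjusted p = 0.011). The 24 h library with the high FAR1 value was replicate 3, yet all libraries at 96 h lay above it. ASFT, which attaches ferulate to the aliphatic chains, had 32.7, 27.1 and 33.7 CPM at 96 h, against 11.7, 10.7 and 4.60 CPM at 24 h (1.83 ± 0.64, adjusted p = 0.0313). Its groups did not overlap, but the call was lost without any 1 library other than 96 h replicate 2, the adjusted p being 0.115 without 24 h replicate 3. The FAR1 adjusted p was 0.0554 without 24 h replicate 1 and 0.0575 without 24 h replicate 2, and its fold change 4.41 without 24 h replicate 3. For FAR4 the fold change was 6.22 without 24 h replicate 1. FACT (AT5G63560), the enzyme that links fatty alcohols to caffeate in root waxes, was outside the list and had 11.8, 7.47 and 13.7 CPM at 96 h with 0 counts in all libraries at 24 h, at least 367-fold higher against a floor of 3 counts over the group (adjusted p = 0.000264).

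The exporters and regulators of the suberin list followed. The transporter gene ABCG6 had 8.41, 9.23 and 9.92 CPM at 96 h, against 0.211, 0.166 and 0.0586 CPM at 24 h (log2 fold change 6.0 ± 0.79, adjusted p = 1e-05), and its relative ABCG20 rose by 0.98 ± 0.20. ABCG2 was too low to test. MYB93 and MYB107 encode transcription factors of suberin synthesis, and neither had a single count in the 3 libraries at 24 h. MYB107 had 0.725, 1.13 and 0.615 CPM at 96 h, at least 27.5-fold higher (adjusted p = 9e-05), and MYB93 had 0.779, 0.602 and 1.37 CPM, at least 30.5-fold higher (adjusted p = 0.00225). MYB9 rose by 1.89 ± 0.44. MYB41, a suberin activator under stress, had 0.380, 0.833 and 0.251 CPM at 96 h, against 0.548, 0.831 and 0.0879 CPM at 24 h, so that the groups overlapped fully (0.02 ± 0.83, adjusted p = 0.99). The elongases that lengthen the acyl chains split. KCS2 had 3.04, 2.45 and 3.72 CPM at 96 h, against 0.295, 0.309 and 0.791 CPM at 24 h (2.72 ± 0.39, adjusted p = 3.01e-05). KCS20 was the 1 member that fell, with 17.2, 16.2 and 18.9 CPM at 96 h, against 28.2, 30.4 and 29.1 CPM at 24 h (−0.75 ± 0.16, adjusted p = 0.000974). GPAT7 did not pass (1.97 ± 0.80, adjusted p = 0.0632). FAR4, FAR1, MYB9, ASFT and KCS2 overlap other annotated genes, and whether counting used strand is not given in the sources used here.

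**Figure D2:**
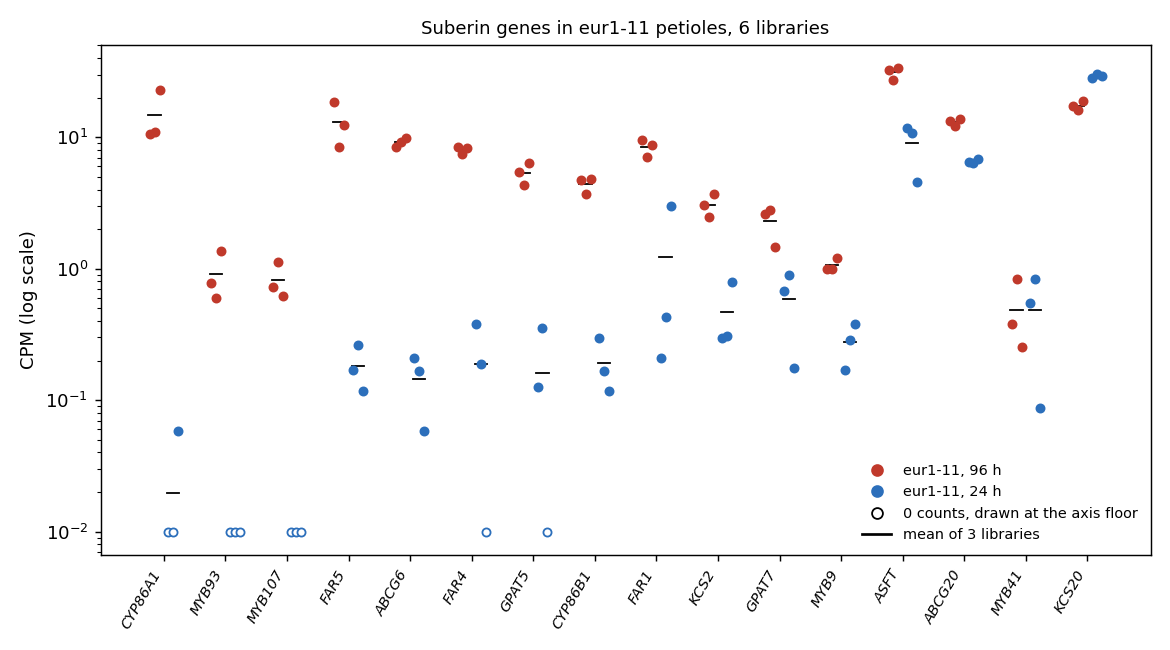
CPM on a log scale of the 16 tested suberin genes in each eur1-11 petiole library, 96 h in red left of 24 h in blue, with a black bar at the mean of 3 libraries and open circles for 0 counts. The 3 libraries at 96 h lie above those at 24 h for every gene but MYB41, whose groups overlap, and KCS20, which was lower at 96 h.

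Several of the steepest rises in the whole table had the same on and off form. AT5G37690, annotated as an esterase of the SGNH hydrolase family, had 9.73, 8.84 and 17.1 CPM at 96 h and 0 counts at 24 h, at least 397-fold higher (adjusted p = 8.63e-05). AT2G23540, a GDSL-motif esterase, had 11.6, 11.4 and 23.5 CPM at 96 h, against 0, 0 and 0.0879 CPM at 24 h, a count ratio of 490 (counting interval 167 to 2378). AT2G18370, a lipid-transfer protein gene, had 10.5, 8.56 and 15.7 CPM at 96 h, against 0, 0.0237 and 0 CPM at 24 h. For all 3 genes every library at 96 h was far above a 24 h group that held almost no reads. The peroxidase gene AT2G38390 had 28.6, 24.2 and 37.7 CPM at 96 h, against 0.0422, 0 and 0.117 CPM at 24 h (log2 fold change 9.24 ± 1.21, adjusted p = 4.26e-05). With so few early reads its fitted fold change moved with the library left out, to 8.32 without 24 h replicate 2, 8.60 without 96 h replicate 3 and 11.00 without 24 h replicate 3.

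Low oxygen response genes rose together. This list holds enzymes of fermentation and sugar cleavage and the sensors and transcription factors that plants use when oxygen falls. Of 15 members, all tested, 10 rose and none fell (66.7% called, beside 36.0% of all genes tested). The median log2 fold change was 1.66, and 9 rose without 96 h replicate 3. PDC1, pyruvate decarboxylase of ethanol fermentation, had 32.8, 20.1 and 6.82 CPM at 96 h, against 1.31, 0.902 and 0.293 CPM at 24 h (4.54 ± 0.36, adjusted p = 2.79e-08). Replicate 3 was the lowest library at both times, and the groups did not overlap. ADH1, alcohol dehydrogenase of the next step, had 38.9, 32.4 and 21.4 CPM at 96 h, against 11.2, 9.83 and 8.08 CPM at 24 h (1.66 ± 0.17, adjusted p = 5.56e-07). SUS4, a sucrose synthase, had 15.3, 10.3 and 7.91 CPM at 96 h, against 0.928, 1.04 and 0.410 CPM at 24 h (3.81 ± 0.41, adjusted p = 1.07e-06). ADH1 overlaps an antisense gene, AT1G77122.

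The oxygen-sensing and regulatory members rose with the enzymes. PCO2, a cysteine oxidase that marks the ERFVII transcription factors for decay when oxygen is present, had 3.30, 2.96 and 1.98 CPM at 96 h, against 0.211, 0.142 and 0.176 CPM at 24 h (log2 fold change 3.94 ± 0.38, adjusted p = 2.39e-07). PCO1 rose by 2.78 ± 0.43. LBD41, a transcription factor gene of the hypoxia core response, had 28.8, 22.7 and 19.0 CPM at 96 h, against 3.37, 3.70 and 2.64 CPM at 24 h (2.85 ± 0.24, adjusted p = 6.35e-08). For these genes the lowest library at 96 h was above the highest at 24 h. SAD6, a stearoyl desaturase gene counted in this list, had 11.4, 7.06 and 2.88 CPM at 96 h and 0 counts at 24 h, at least 237-fold higher (adjusted p = 5.3e-07). The ERFVII genes HRE1 and HRE2 did not pass, at 0.12 ± 0.25 (adjusted p = 0.746) and 0.90 ± 0.69 (adjusted p = 0.331), nor did the haemoglobin gene HB1, at 0.15 ± 0.39 (adjusted p = 0.793).

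In WT the low oxygen list had a median of 2.63, with 13 of 15 members higher. PDC1 changed by 6.41 ± 0.38 in WT on the log2 scale, so that the change in eur1-11 minus that in WT was −1.87 ± 0.51 (unadjusted p = 0.0013, adjusted p = 1). For PCO2 this difference was −2.59 (unadjusted p = 0.000996, adjusted p = 1). Neither difference passed the adjustment over all genes.

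Jasmonate output genes rose by steep but uneven amounts. Jasmonate is the wound and defence hormone whose JAZ repressors are broken down when it is present. Of 10 output genes 5 rose and none fell (50% called, beside 36.0% of all genes tested, with a median log2 fold change of 2.31). PDF1.2, a plant defensin, had 55.8, 88.3 and 47.4 CPM at 96 h, against 2.49, 6.50 and 0.205 CPM at 24 h (4.72 ± 0.87, adjusted p = 0.000323). VSP1, a vegetative storage protein with phosphatase activity, had 584, 342 and 63.0 CPM at 96 h, against 16.6, 17.6 and 10.1 CPM at 24 h (4.1 ± 0.89, adjusted p = 0.0014). THI2.1, a thionin, had 103, 86.2 and 7.85 CPM at 96 h, against 4.13, 3.51 and 4.07 CPM at 24 h (3.23 ± 0.85, adjusted p = 0.00633). For VSP1 and THI2.1 replicate 3 at 96 h lay far below its partners, though above every 24 h library. VSP2 had 425, 329 and 55.3 CPM at 96 h, against 26.7, 26.2 and 59.9 CPM at 24 h, where the replicate 3 libraries made the groups overlap (2.37 ± 0.94, adjusted p = 0.0536). Without 96 h replicate 3, 7 of the 10 genes passed as higher, and without 24 h replicate 1 only 3 passed. THI2.1 was lost without 24 h replicate 1 (adjusted p = 0.0512) or 2 (0.0503) and had a fold change of 4.47 without 24 h replicate 3. The PDF1.2 fold change was 5.94 without 24 h replicate 2.

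Upstream of these outputs, 2 of 14 jasmonate synthesis genes rose and 1 fell (median 0.19). LOX2, the chloroplast lipoxygenase of the first step, had 3365, 3340 and 1717 CPM at 96 h, against 799, 847 and 473 CPM at 24 h (log2 fold change 1.97 ± 0.36, adjusted p = 0.00032). Of 11 tested JAZ genes, 3 rose by less than 1 on the log2 scale and JAZ8 fell by 1.51. The share called was 21.4% for the synthesis genes and 36.4% for the JAZ genes, beside 36.0% of all genes tested. The jasmonate-induced lectin genes JAL23 and JR1 were among the largest rises in CPM over all genes, at 2.22 ± 0.53 and 1.63 ± 0.43 on the log2 scale. BGLU18, a beta-glucosidase, had the largest rise in CPM, with 10443, 10390 and 6772 CPM at 96 h, against 3094, 3241 and 3010 CPM at 24 h (1.49 ± 0.54, adjusted p = 0.036). That call was lost without any 1 library other than 24 h replicate 3, with adjusted p of 0.0632, 0.0587 and 0.0903 without 96 h replicates 1, 2 and 3 and of 0.127 and 0.122 without 24 h replicates 1 and 2. In WT, 9 of the 11 JAZ genes and 8 of the 10 output genes were higher at 96 h, with list medians of 0.93 and 4.08; 4 of the JAZ genes had an unadjusted p under 0.05 for the difference between the genotypes and none passed the adjustment.

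**Figure D3:**
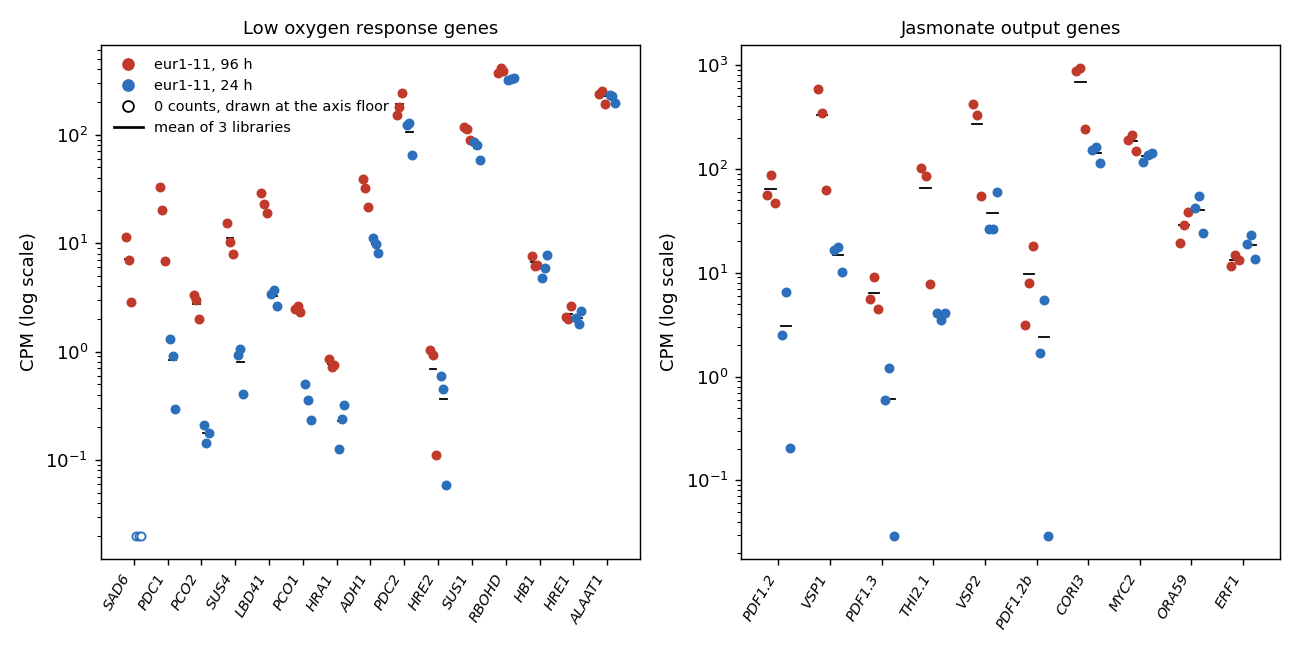
CPM on a log scale of low oxygen response genes (left) and jasmonate output genes (right) in each eur1-11 petiole library, 96 h in red left of 24 h in blue, bars at the mean of 3 libraries and open circles for 0 counts. PDC1, PCO2, SUS4 and LBD41 separate fully between the times, whereas VSP2 overlaps, with 55.3 CPM in 96 h replicate 3 and 59.9 CPM in 24 h replicate 3.

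Salicylate and defence genes moved in both directions. Of 28 genes 3 rose and 12 fell (53.6% called, beside 36.0% of all genes tested). The median log2 fold change was −0.46, or −0.01 with total-count scaling. PR1, the secreted marker protein of salicylate responses, had 763, 735 and 850 CPM at 96 h, against 41.6, 36.2 and 11.4 CPM at 24 h (4.62 ± 0.62, adjusted p = 1.22e-05). PR2, a beta-1,3-glucanase, had 607, 643 and 292 CPM at 96 h, against 108, 82.2 and 175 CPM at 24 h (2.16 ± 0.49, adjusted p = 0.0019). DLO1, which hydroxylates salicylate, rose by 2.49 ± 0.36. On the other side stood the synthesis enzyme ICS1, with 20.6, 27.5 and 38.3 CPM at 96 h, against 69.5, 63.9 and 143 CPM at 24 h (−1.62 ± 0.33, adjusted p = 0.000729). FRK1, a receptor-like kinase gene used as a marker of immune signalling, had 70.3, 62.3 and 106 CPM at 96 h, against 399, 416 and 399 CPM at 24 h (−2.39 ± 0.55, adjusted p = 0.00209). The hybrid proline-rich protein gene AZI1 fell further than any other member, with 5.91, 4.26 and 15.2 CPM at 96 h, against 144, 150 and 160 CPM at 24 h (−4.28 ± 0.39, adjusted p = 1.33e-07). In each of the 3 genes that fell, all libraries at 96 h were below all at 24 h. EDS1, WRKY70 and NIMIN1, regulators of the same pathway, fell by 0.99, 1.13 and 2.19 on the log2 scale.

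The steepest falls among genes of at least 5 CPM at 24 h included a cell wall glycoprotein, a lectin and nutrient transporters. FLA13, a fasciclin-like arabinogalactan protein gene, had 0.833, 0.741 and 1.54 CPM at 96 h, against 33.4, 35.3 and 27.6 CPM at 24 h (log2 fold change −4.98 ± 0.31, adjusted p = 2.01e-09). PP2-A5, a phloem protein 2-like lectin gene, had 0.109, 0.0694 and 0.168 CPM at 96 h, against 4.51, 6.93 and 8.82 CPM at 24 h (−5.82 ± 0.57, adjusted p = 2.73e-07). EXO70H1, an exocyst subunit gene, had 0.942, 0.463 and 1.15 CPM at 96 h, against 14.5, 19.9 and 16.1 CPM at 24 h (−4.30 ± 0.78, adjusted p = 0.000277). None of these genes had overlapping libraries. The nitrate transporter NRT2.5 had 1.1, 0.694 and 2.85 CPM at 96 h, against 11.3, 10.7 and 20.2 CPM at 24 h (−3.29 ± 0.83, adjusted p = 0.00465), and the zinc transporter ZIP2 had 3.71, 2.55 and 0.196 CPM, against 25.4, 26.0 and 7.06 CPM (−3.65 ± 0.65, adjusted p = 0.000231; −3.04 without 24 h replicate 3).

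Photosynthesis transcripts of both genomes were lower at 96 h. Of 43 nuclear genes for photosystem, antenna, Rubisco and Calvin cycle proteins 30 fell and none rose (69.8% called, median log2 fold change −1.12). In petiole pieces, fewer cells of a type and less RNA per cell cannot be told apart. LHCB1.1, an antenna protein gene, had 89.6, 89.6 and 210 CPM at 96 h, against 472, 385 and 1212 CPM at 24 h (−2.39 ± 0.45, adjusted p = 0.000436). The Rubisco subunit gene RBCS3B had 45.7, 44.7 and 61.1 CPM at 96 h, against 160, 123 and 374 CPM at 24 h (−2.08 ± 0.41, adjusted p = 0.000561). In both genes 24 h replicate 3 was the highest library by far, and both have near-identical copies among which reads may be split. The count moved with the libraries used: 5 of the 43 passed without 24 h replicate 3 alone and 13 without 96 h replicate 1 or 2, whereas without replicate 3 of every group 36 fell and 2 rose (median −0.83). The RBCS3B fold change was −1.49 without 24 h replicate 3. With total-count scaling 12 of the 43 fell and 1 rose. Of 119 tested genes of the chloroplast genome 72 fell and 1 rose (61.3% called, median −0.75), and 60 to 71 passed with each library left out in turn. With total-count scaling 50 of them fell and 12 rose (median −0.28). Whether the libraries were made by poly(A) selection or ribosomal RNA depletion is not given in the sources used here. ATCG00490 had 12742, 13706 and 25537 CPM at 96 h, against 59060, 57814 and 93556 CPM at 24 h (−2.03 ± 0.23, adjusted p = 1.38e-06), and ATCG00020 changed by −1.18 ± 0.22. Of 101 tested mitochondrial genes 29 rose and 3 fell (31.7% called, beside 36.0% of all genes tested). The mitochondrial share of counts was 1.79 ± 0.128% at 96 h and 1.08 ± 0.0319% at 24 h (SD, n = 3 each). It is a share of the same totals in which the chloroplast share was lower at 96 h. On the TMM scale the summed mitochondrial level was 12351 to 13436 CPM at 96 h, against 10108 to 12050 CPM at 24 h (list median 0.16).

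Senescence and chlorophyll breakdown genes moved in both directions. Of 25 tested members 9 rose and 4 fell (median log2 fold change 0.44). That is 52% called, beside 36.0% of all genes tested (17.1% higher and 18.9% lower). NYE1, the Mg-dechelatase that starts chlorophyll breakdown, had 35.6, 36.6 and 32.6 CPM at 96 h, against 19.4, 20.3 and 16.2 CPM at 24 h (0.91 ± 0.13, adjusted p = 1.87e-05). Its paralogue NYE2 rose by 1.99 ± 0.30, the pheophytinase gene PPH by 0.70 ± 0.10 and the chlorophyll b reductase gene NYC1 by 0.75 ± 0.09. ACD2, the reductase of red chlorophyll catabolite, did not pass (0.45, adjusted p = 0.0544). All libraries at 96 h were above all at 24 h for NYE1. ORS1, a NAC transcription factor gene of senescence, had 9.46, 8.70 and 14.1 CPM at 96 h, against 3.08, 3.32 and 1.79 CPM at 24 h (2.03 ± 0.30, adjusted p = 3.12e-05). ORE1, whose promoter drives the reporter, had 28.8, 28.5 and 24.6 CPM at 96 h, against 26.5, 29.9 and 10.7 CPM at 24 h and did not pass (0.33 ± 0.28, adjusted p = 0.375). SAG12, the classic marker of late leaf senescence, had 0 counts in all 6 libraries. WRKY53 fell by 1.27 and the dark-induced gene DIN1 by 1.60, whereas DIN2 rose by 3.04 ± 0.77, the largest change of the list. Of 11 autophagy genes 8 rose and none fell (median 0.40), among them ATG8F, with 46.6, 41.8 and 45.5 CPM at 96 h, against 21.4, 23.1 and 26.6 CPM at 24 h (0.91 ± 0.14, adjusted p = 7.19e-05). The share of autophagy genes called was 72.7%. Only 3 to 6 of the 11 passed with each library left out in turn, the fewest without 24 h replicate 1 and without 96 h replicate 1.

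Auxin response genes were lower late, while single synthesis genes moved in opposite directions. Of 18 auxin response and inactivation genes 11 fell and 2 rose (72.2% called, beside 36.0% of all genes tested). The median log2 fold change was −1.02. IAA19, an early auxin-induced repressor, had 1.52, 1.62 and 5.25 CPM at 96 h, against 14.1, 13.3 and 21.4 CPM at 24 h (−2.74 ± 0.43, adjusted p = 5.87e-05). IAA29 and IAA5 fell by 2.93 and 2.22, and IAA29 changed by −3.88 without 96 h replicate 3. GH3.17, which conjugates auxin, was 1 of the 2 that rose, with 21.4, 18.0 and 20.3 CPM at 96 h, against 6.79, 6.27 and 12.3 CPM at 24 h (1.26 ± 0.19, adjusted p = 4.07e-05). The other was IAA20, with 1.34, 0.787 and 1.79 CPM at 96 h, against 0.337, 0.760 and 0.820 CPM at 24 h, where the groups overlapped (0.99 ± 0.31, adjusted p = 0.0207). That call was lost without 96 h replicate 1 (0.0878), 96 h replicate 3 (0.0729) or 24 h replicate 1 (0.107). Of the 18 genes 8 passed without 96 h replicate 1. In WT the IAA20 change was −1.01 ± 0.32, and the difference between the genotypes was 2.0 ± 0.45 (unadjusted p = 0.000353, adjusted p = 1).

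Of 8 tested auxin synthesis genes 2 rose and 2 fell (50% called, beside 36.0% of all genes tested). TAA1, the aminotransferase of the first step, had 2.68, 3.47 and 1.65 CPM at 96 h, against 1.01, 0.855 and 0.703 CPM at 24 h (log2 fold change 1.60 ± 0.40, adjusted p = 0.00421), and the flavin monooxygenase gene YUC6 rose by 1.05 ± 0.28. YUC5, of the same family as YUC6, had 0.181, 0.255 and 0.671 CPM at 96 h, against 1.73, 1.14 and 2.78 CPM at 24 h (−2.45 ± 0.51, adjusted p = 0.00102). YUC8 had 1.3, 1.71 and 2.24 CPM at 96 h, against 1.18, 1.07 and 0.762 CPM at 24 h. The YUC8 libraries did not overlap, but the gene did not pass (0.72 ± 0.47, 95% interval −0.24 to 1.69, adjusted p = 0.237). YUC9 was near the detection limit at both times (0.71 ± 0.94, adjusted p = 0.59). The auxin exporter gene PIN2 had 2 counts at 96 h and 19 at 24 h over the 3 libraries of each time and was too low to test. Of 14 auxin transport genes 2 rose and 3 fell, and the median was −0.15, turning to 0.30 with total-count scaling. Only 2 of them passed without 96 h replicate 2 and 3 without 96 h replicate 1. The share of auxin transport genes called, 35.7%, was near the 36.0% of all genes tested.

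Most XTH cell wall genes and some ethylene genes fell. Of 18 ethylene genes 8 fell and none rose (44.4% called, beside 36.0% of all genes tested). Their median log2 fold change was −0.39, turning to 0.07 with total-count scaling, where 4 fell and 4 rose. ACS8, an enzyme of the rate-limiting step of ethylene synthesis, had 3.37, 2.59 and 7.49 CPM at 96 h, against 18.7, 18.7 and 24.0 CPM at 24 h (−2.30 ± 0.46, adjusted p = 0.000623). Its libraries did not overlap. Without 96 h replicate 2 or 96 h replicate 3, 5 of the 18 ethylene genes passed. Of 22 tested XTH genes, which encode enzymes that cut and rejoin xyloglucan in growing walls, 15 fell and none rose (68.2% called, median −1.12). With total-count scaling 10 XTH genes fell and 4 rose. XTH6 had 1.94, 1.02 and 2.79 CPM at 96 h, against 13.3, 12.3 and 31.2 CPM at 24 h (−3.33 ± 0.49, adjusted p = 3.7e-05; −2.65 without 24 h replicate 3), and the touch-induced TCH4 had 28.5, 29.0 and 41.1 CPM, against 97.4, 106 and 116 CPM (−1.73 ± 0.27, adjusted p = 5.44e-05). Among 15 tested EXPA expansins, wall-loosening proteins, EXPA5 was 1 of 2 that fell, by 2.39, and EXPA15 rose by 1.25 ± 0.29 (list median −0.40, turning to 0.06 with total-count scaling). The share of expansins called was 20%, below the 36.0% of all genes tested.

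Root founder genes and the cell cycle were examined because roots can form from this tissue. Of 20 tested root founder and regeneration genes 4 rose and 6 fell (50% called, beside 36.0% of all genes tested). The median log2 fold change was −0.20, turning to 0.26 with total-count scaling. Of the 20, 5 passed without 24 h replicate 1 and 6 without 96 h replicate 1 or 2. WOX11, the homeobox gene of the first founder step, had 0.670, 1.11 and 2.77 CPM at 96 h, against 2.53, 3.49 and 3.25 CPM at 24 h (−1.30 ± 0.41, adjusted p = 0.019). Its 96 h replicate 3 lay within the 24 h range, and the call was lost without 96 h replicate 1 (0.0847), 96 h replicate 2 (0.0535), 24 h replicate 1 (0.0656) or 24 h replicate 2 (0.119). ERF115, a wound-induced gene of regeneration, had 4.66, 3.84 and 2.79 CPM at 96 h, against 10.3, 13.4 and 6.50 CPM at 24 h (−1.40 ± 0.26, adjusted p = 0.000429). NAC1, a transcription factor gene of root formation from leaves, had 29.6, 25.8 and 25.4 CPM at 96 h, against 9.62, 9.21 and 7.47 CPM at 24 h (1.63 ± 0.30, adjusted p = 0.000284). LBD16, downstream of WOX11, did not pass (−0.56 ± 0.39, adjusted p = 0.288). Of 19 DNA replication genes 13 fell and none rose (68.4% called, median −0.60). Of these 7 passed without 24 h replicate 2 or without 96 h replicate 3, and with total-count scaling 3 fell and 2 rose. PCNA1, the sliding clamp of DNA polymerase, had 8.24, 9.21 and 6.85 CPM at 96 h, against 19.5, 18.0 and 14.6 CPM at 24 h (−1.1 ± 0.18, adjusted p = 0.000101). Of 22 mitosis genes 8 fell and none rose (median −0.53), none passed with total-count scaling, 20 fell without replicate 3 of every group, and 3 to 6 passed with each library left out in turn. The share of mitosis genes called, 36.4%, was near the 36.0% of all genes tested.

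Core ABA genes, the pathway on which EAR1 acts, moved in both directions. Of 23 tested receptor and core signalling genes 10 rose and 4 fell (median log2 fold change 0.43), and 9 passed without 24 h replicate 1. The share called was 60.9%, beside 36.0% of all genes tested (17.1% higher and 18.9% lower). Among the 10 were 5 of the 7 tested PP2C phosphatase genes, and the 4 that fell were receptors. The PP2C phosphatases dampen the pathway until ABA-bound receptors hold them. HAI2 had 6.47, 5.85 and 4.61 CPM at 96 h, against 2.49, 1.71 and 2.40 CPM at 24 h (1.37 ± 0.34, adjusted p = 0.00375). ABI1 had 87.7, 88.1 and 85.0 CPM at 96 h, against 52.9, 52.9 and 67.2 CPM at 24 h (0.60 ± 0.15, adjusted p = 0.00419). HAB1, HAB2 and AHG3 rose by 0.62 ± 0.11, 0.75 ± 0.14 and 1.20 ± 0.30. For HAI2 and ABI1 the lowest library at 96 h was above the highest at 24 h. Of the receptors, PYL4 had 13.7, 13.3 and 16.7 CPM at 96 h, against 34.0, 31.7 and 30.3 CPM at 24 h (−1.14 ± 0.30, adjusted p = 0.00599), and PYL2 fell by 2.87 (−1.88 without 24 h replicate 3). ABF3, a transcription factor gene at the end of the pathway, rose by 0.69 ± 0.22, a call that was lost without 96 h replicate 1 (adjusted p = 0.061), 24 h replicate 1 (0.0654) or 24 h replicate 2 (0.0824). NCED3, the rate-limiting enzyme of ABA synthesis, did not pass (−0.03 ± 0.37, adjusted p = 0.956).

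In WT, 5 of the same 23 ABA genes rose and 1 fell, with a median of 0.11. The differences between the genotypes were tested gene by gene: HAI2 changed by 0.19 in WT on the log2 scale (unadjusted p for the difference = 0.0207), ABI1 by 0.11 (0.0333) and HAB1 by 0.18 (0.0113). With ABF3, 4 of the 23 had an unadjusted p under 0.05, and none passed the adjustment over all genes. Over all genes, WT petioles had 7837 genes past the threshold (36.5%), 3779 higher (17.6%) and 4058 lower (18.9%). Of those, 2777 (12.9%) also changed by 1 or more on the log2 scale, 1516 higher (7.06%) and 1261 lower (5.87%). The difference between the eur1-11 change and the WT change passed for 0 of 21472 genes in edgeR, with 707 genes at an unadjusted p under 0.05 (3.29%), and for 2 genes in DESeq2. Leaving out replicate 3 of every group gave 1137 genes, 523 with the higher change in eur1-11 and 614 with the lower. That fit keeps replicates 1 and 2, the most alike libraries of each group, and so rests on a smaller spread. Which of these counts holds was not tested. The differences between the genotypes given for single genes are from the fit with all libraries.

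**Figure D4:**
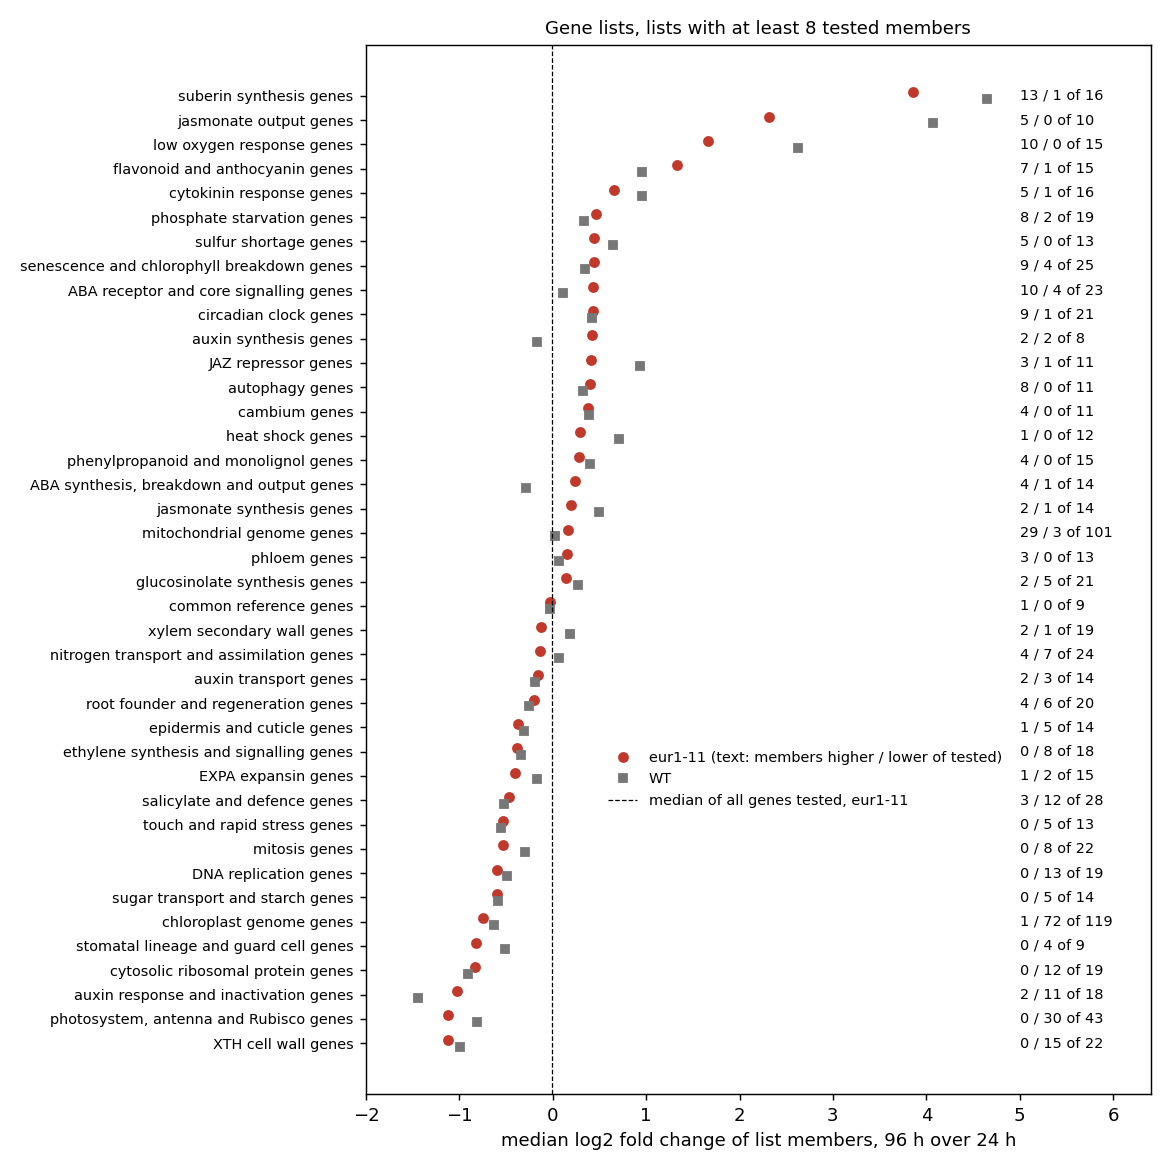
Median log2 fold change of 96 h over 24 h for each gene list with at least 8 tested members, in eur1-11 (red circles) and WT (grey squares), with the number of members higher and lower of those tested in eur1-11 at the right and the median of all genes tested as a dashed line. Suberin, jasmonate output and low oxygen lists have the highest medians in both genotypes (3.86, 2.31 and 1.66 in eur1-11), and the XTH and photosystem lists the lowest in eur1-11 (−1.12 each).

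The intermediate times show when the differences between 24 and 96 h arose. Of the 3671 genes that were higher at 96 h, 2461 (67.0%) had means that increased at each step from 24 through 48 and 72 to 96 h, and of the 4052 that were lower 2543 (62.8%) had means that decreased at each step. The largest step fell between 24 and 48 h for 70.2% of the lower genes, between 48 and 72 h for 25% and between 72 and 96 h for 4.74%. For the higher genes the shares were 42.3, 32.1 and 25.6%. CYP86A1 had means of 0, 0.0195, 1.11, 16.7 and 14.8 CPM in the order 0, 24, 48, 72 and 96 h, and GPAT5 had 0, 0.161, 1.52, 6.16 and 5.39 CPM. Both thus reached their late level by 72 h. PDC1 had 0.332, 0.834, 0.882, 3.59 and 19.9 CPM and VSP1 7.38, 14.8, 18.6, 51.5 and 330 CPM, with most of the increase of the mean in the last interval. PR1 had 0.572, 29.7, 825, 1274 and 783 CPM, and with SDs of 685 and 870 CPM at 48 and 72 h (n = 3) its means from 48 h on lay within the spread of the libraries. AZI1 had 0.165, 152, 40.7, 17 and 8.46 CPM, with its highest mean at 24 h. IAA19, at 16.7, 16.3, 8.08, 5.30 and 2.80 CPM, had no such peak.

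**Figure D5:**
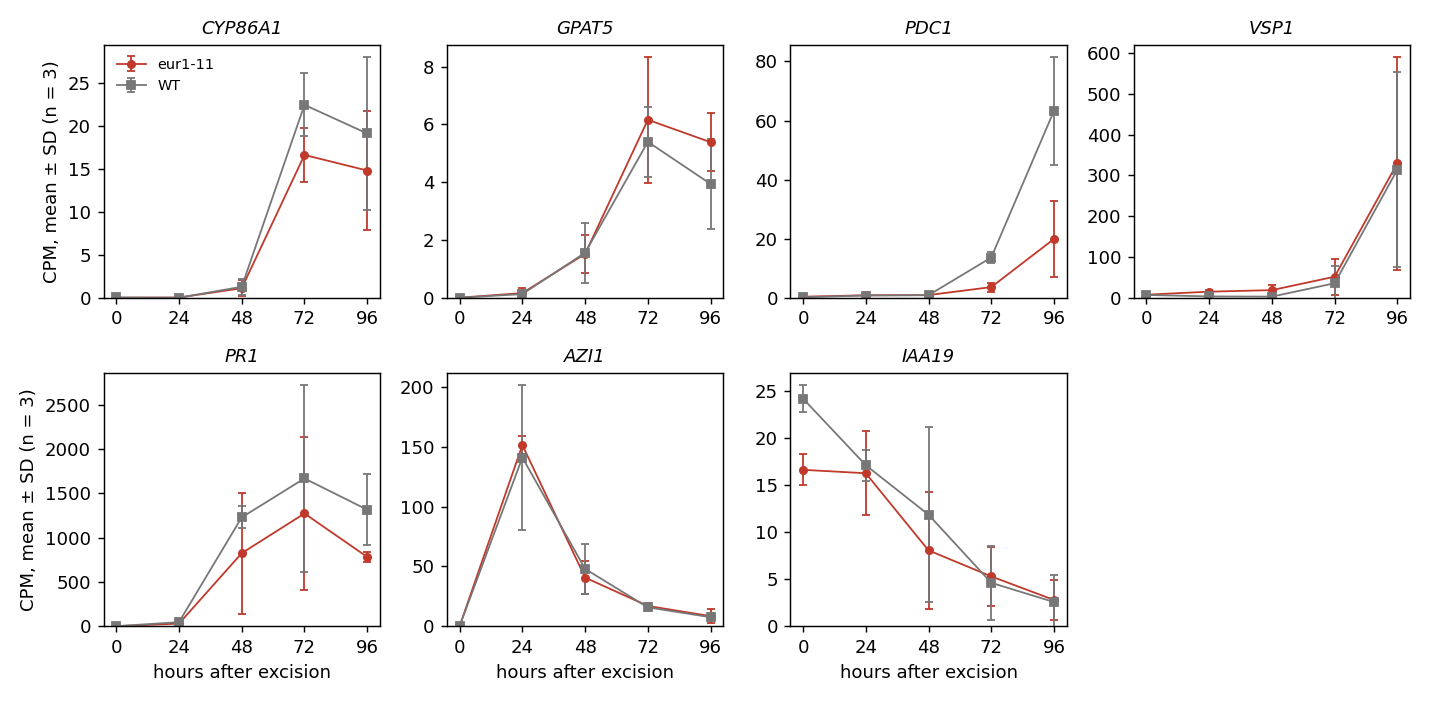
Mean CPM with SD (n = 3 libraries) from 0 to 96 h for 7 genes in eur1-11 (red circles) and WT (grey squares). In eur1-11, CYP86A1 and GPAT5 reach their late level by 72 h, PDC1 and VSP1 increase mainly after 72 h, AZI1 is highest at 24 h, and IAA19 is lowest at 96 h.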

How the data were processed

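Per the labels, excised leaves of the eur1-11 mutant and the WT reporter line were sampled by RNA-seq, 3 libraries for each of 5 times. The deposited values are raw read counts per gene: the authors used FastQC for read quality, STAR for alignment against TAIR10 and HTSeq for counting (versions and strand setting not given in the sources used here). Rows naming no gene were left out of totals; in the 6 libraries reads in no feature came to 3.77 to 4.92% and ambiguous reads to 2.52 to 2.94%. The counts were fitted with edgeR 4.0.16 in R 4.3.3: filterByExpr, TMM scaling, 1 term for each of the 10 groups over all 30 libraries, the replicate number as a block after the study's own design, and quasi-likelihood F tests, adjusted over 21472 genes by Benjamini-Hochberg and called under 0.05. DESeq2 1.42.0 was an alternative. Same-numbered libraries of 96 h and 24 h deviated together (r = 0.396, 0.358 and 0.487), although replicates 1 and 2 correlated about as well across numbers (0.388 and 0.337) and replicate 3 stood against both (−0.442 to −0.387). Deviations were taken from the mean of each group. With replicate 3 apart at both times the signs were thus largely fixed in advance, and they cannot show whether the numbers mark pairs. No 2 libraries were repeats of each other within sampling noise. The code was tested on simulated data.

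Genes named are EAR1 and 4 genes the study names, the 12 highest and 12 lowest fold changes among called genes with at least 5 CPM in the higher group and no overlap, the 6 largest rises and falls in CPM, and up to 4 called members a list; other members were named after their values were seen. The members and lists (36 by hand, 5 by annotation) were chosen with earlier results of these data known; 10 listed members whose names did not match the annotation were left out. Of 33602 identifiers 32835 matched the RefSeq annotation of TAIR10.1, the source of names, coordinates, overlaps and promoters. A near copy has at least 90% identity over at least 50% of the transcript. Alternatives were other scalings, filters, fits and tools and each library left out in turn. Results for some genes are not reported here.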

Additional observations from a re-analysis of the deposited data

How the results depend on the processing

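The eur1-11 count of 7723 genes stayed within 1.5 times under every scaling, filter, fit and tool tried, from 5461 with the 6 libraries alone and no replicate block to 11562 with total-count scaling, and only the added requirement of a log2 fold change of at least 1 took it further, to 2709. Without the replicate block 7087 genes passed in eur1-11, 7149 in WT and 0 for the difference between the genotypes. Each eur1-11 library left out in turn gave 5782 to 7597 genes, and no replicate 3 in any group gave 11411, 7390 of them shared with the 7723. Total-count scaling shared 4828 genes and turned OPCL1, a jasmonate synthesis gene at −0.39, to 0.066. In WT, total-count scaling gave 12248 genes and the log2 requirement 2777. The difference between the genotypes passed for 2 genes in DESeq2, for 8 with the replicate block within each time, for 1137 without replicate 3, and for 0 to 1 with each eur1-11 library left out (an alternative added after the data were seen), the 1 being without 96 h replicate 3. The chloroplast share difference ran between −19.6 and −14.8 percentage points. Of the named genes, 15 lost their call without the block, 20 with total-count scaling and 19 to 30 with 1 library left out; the causes were not tested. Depth limits genes with few counts, such as PIN2 and YUC9.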

Other observations

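Of 15 tested flavonoid and anthocyanin genes 7 rose at 96 h and 1 fell in eur1-11 petioles (median log2 fold change 1.33, edgeR). This was 53.3% called, beside 36.0% of all genes tested. For 2 of the 15 the difference from the WT change had an unadjusted p under 0.05, and none passed the adjustment. MYB113, an activator of anthocyanin synthesis, had 11.3, 13.5 and 6.26 CPM at 96 h, against 2.49, 3.39 and 0.498 CPM at 24 h, and the 96 h libraries lay above the 24 h libraries (2.50 ± 0.43, adjusted p = 0.000229). In WT MYB113 changed by 4.28, a difference of −1.79 (eur1-11 minus WT; unadjusted p = 0.0163, adjusted p = 1). DFR, a late enzyme of that pathway, had 56.1, 51.9 and 19.2 CPM at 96 h, against 6.87, 8.57 and 3.19 CPM at 24 h (2.74 ± 1.05, adjusted p = 0.0471). The DFR call was lost without each of the 6 libraries in turn (adjusted p = 0.077 to 0.131), and 3 to 7 genes of the list passed, the fewest without 24 h replicate 2. Of the nutrient lists, those for sulfur and sugar were called at shares near the 36.0% of all genes. Of 24 nitrogen genes 4 rose and 7 fell (45.8% called, with a median of −0.14, turning to 0.32 with total-count scaling). The nitrate transporter NRT1.5 had 23.4, 19.2 and 14.7 CPM at 96 h, against 5.44, 4.68 and 3.78 CPM at 24 h (2.04 ± 0.34, adjusted p = 0.000142). The cytosolic glutamine synthetase GLN1;2 had 410, 360 and 374 CPM at 96 h, against 196, 184 and 169 CPM at 24 h (1.06 ± 0.15, adjusted p = 2.53e-05). Neither gene had overlapping libraries. Among the nitrogen genes that fell, the ammonium transporter gene AMT2 changed by −1.38 ± 0.21. NRT1.8 changed by −1.77 ± 0.57, and its libraries overlapped. Of 19 phosphate starvation genes 8 rose and 2 fell (52.6% called, median 0.46). Of these 19, 4 to 7 passed with 1 library left out, the fewest without 96 h replicate 1. Of 13 sulfur shortage genes 5 rose (38.5%, median 0.45), and of 14 sugar transport and starch genes 5 fell (35.7%, median −0.60).

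Markers of other cell types of the petiole were counted as well. The share called was 36.4% for cambium genes, near the 36.0% of all genes tested, and lower for phloem (23.1%) and xylem genes (15.8%). It was 42.9% for epidermis and cuticle genes and 44.4% for stomatal lineage and guard cell genes. Of 11 tested cambium genes 4 rose and none fell (median 0.38), with a summed level of 240 to 276 CPM at 96 h, against 205 to 251 CPM at 24 h, and 2 passed without 24 h replicate 2. LBD4, a cambium regulator, had 5.87, 6.11 and 4.95 CPM at 96 h, against 1.81, 1.95 and 1.05 CPM at 24 h (1.82 ± 0.21, adjusted p = 2.55e-06). Of 13 phloem genes 3 rose (median 0.15; summed level 517 to 648 CPM at 96 h, against 458 to 466 CPM at 24 h), among them SWEET12, a sucrose exporter of the phloem parenchyma, at 1.45 ± 0.24. Of 19 xylem secondary wall genes 2 rose and 1 fell (median −0.12, turning to 0.36 with total-count scaling; summed level 102 to 176 CPM at 96 h, against 135 to 256 CPM at 24 h). Of 14 tested epidermis and cuticle genes 1 rose and 5 fell (median −0.37, turning to 0.10 with total-count scaling; summed level 256 to 417 CPM at 96 h, against 265 to 595 CPM at 24 h), and 3 passed without 24 h replicate 3. Of 9 tested stomatal lineage and guard cell genes 4 fell (median −0.82; summed level 28.1 to 30.7 CPM at 96 h, against 28.0 to 37.9 CPM at 24 h), and 2 passed without 96 h replicate 1 or 2. The part of these cell types in the results was not tested.

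The remaining lists are given as counts, to be read beside the 36.0% called over all genes tested. The share called was near that for cytokinin (37.5%), touch and rapid stress (38.5%) and glucosinolate genes (33.3%). So was that of ABA synthesis, breakdown and output genes (35.7%). It was lower for phenylpropanoid (26.7%), heat shock (8.33%) and reference genes (11.1%), and higher for clock (47.6%) and the listed ribosomal protein genes (63.2%). Of 21 circadian clock genes 9 rose and 1 fell (median 0.43), and GI, a clock gene, had 78.7, 83.8 and 84.7 CPM at 96 h, against 45.0, 44.9 and 46.5 CPM at 24 h (0.86 ± 0.10, adjusted p = 4.13e-06). Of 16 cytokinin genes 5 rose and 1 fell (median 0.65), with 3 passing without 24 h replicate 1. Among those that rose were the response regulator gene ARR6, by 5.42 ± 0.95 from 3 counts at 24 h, and 2 cytokinin oxidase genes. These were CKX3, by 4.11 ± 1.05, and CKX1, by 1.15 ± 0.40, with means of 0.0744 and 0.548 CPM at 24 h. The CKX1 libraries overlapped. The 1 that fell was CKX4. CKX4, a cytokinin oxidase, had 2.34, 2.13 and 3.10 CPM at 96 h, against 6.11, 7.10 and 10.5 CPM at 24 h (−1.60 ± 0.26, adjusted p = 8.01e-05), and −0.51 in WT (unadjusted p for the difference 0.00664, adjusted p = 1). Of 19 tested ribosomal protein genes 12 fell and none rose (median −0.83; 5 fell and 2 rose with total-count scaling). This list holds only the 23 genes whose annotated product name gives the ribosome subunit size. Ribosomal protein genes named otherwise were not counted, so that the family as a whole was not examined. Of 13 touch and rapid stress genes 5 fell (median −0.53), of 21 glucosinolate genes 2 rose and 5 fell (median 0.14), and of 15 phenylpropanoid genes 4 rose (median 0.28), with 1 passing without 24 h replicate 3. Of 14 ABA synthesis, breakdown and output genes 4 rose and 1 fell (median 0.23), but 1 passed without 96 h replicate 3 and 1 without 24 h replicate 2. Of 12 heat shock genes 1 rose (0 without 24 h replicate 1). Of 9 common reference genes 1 rose (0 without 24 h replicate 3), with a median of −0.03 (0.43 with total-count scaling, where 9 rose).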
